A study of Mus musculus with 24 samples.

Results

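miR-451a, miR-144-3p, miR-144-5p and miR-486-5p are microRNAs (miRNAs) best known from red blood cells, and their levels are described here in the subcutaneous fat of female mice. They were chosen by the miRBase identifiers of their mature sequences (MIMAT0001632 for miR-451a, MIMAT0000156 for miR-144-3p, MIMAT0016988 for miR-144-5p and MIMAT0003130 for miR-486-5p) and make up 4 of the 2045 miRNA loci counted, all of them among the 654 loci with enough reads to test. The rows of miR-3107, which lies opposite miR-486, were left out of the set. The design crosses genotype with training, with 6 small RNA libraries in each of 4 groups: trained mice labelled KinaseDead, sedentary mice labelled KinaseDead, trained mice labelled WildType and sedentary mice labelled WildType. Trained mice ran on a treadmill at 16 m/min for 1 hour on 5 days a week over 6.5 weeks and could also use a running wheel. All groups were fed chow and kept at 22 °C, so housing and diet were shared. The kinase, the cells in which its inactive form is made, the age of the mice and any step to remove blood from the tissue are not stated in the labels. The labels do not say that each library came from a separate mouse, so a p-value here weighs a difference against the spread among the libraries, which may be partly technical.

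Red cell precursors make large amounts of miR-144 and miR-451a from 1 shared primary transcript, which the erythroid factor GATA1 switches on. miR-451a is processed in an unusual way: its short hairpin is not cut by Dicer but by the slicer protein Argonaute 2, and is then trimmed. miR-144 follows the usual path and yields a 5p and a 3p arm. miR-486 lies in Ank1, the gene of the red cell membrane protein ankyrin 1, and is also abundant in skeletal and heart muscle. Mature red cells keep these miRNAs after they have lost their nucleus. In whole tissue, fewer red cells and less miRNA per red cell cannot be told apart.

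Both cluster miRNAs come from chromosome 11, plus strand, of GRCm38 (mm10). The Mir144 hairpin (66 bases) lies at chr11:78073005-78073070 and the Mir451a hairpin (72 bases) at chr11:78073170-78073241, with 99 bases between them, and the GENCODE annotation shows no host gene there. The mature sequences are shown because they are the molecules counted. They are from RefSeq (GRCm38.p6), 5′ to 3′, with the seed, bases 2 to 8, which pairs with target mRNAs, in capitals. Of the 4 miRNAs, 3 had an entry there.
miR-451a: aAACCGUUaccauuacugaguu
miR-144-3p: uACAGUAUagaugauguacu
miR-144-5p: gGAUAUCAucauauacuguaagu
None of the 3 seeds was shared with another mature miRNA of the RefSeq table (0 others each), so the cluster carries 3 different seeds.

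The hairpins show how the mature parts sit, with the mature parts in capitals.
Mir451a hairpin: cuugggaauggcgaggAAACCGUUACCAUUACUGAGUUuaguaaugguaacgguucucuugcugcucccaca
Mir144 hairpin: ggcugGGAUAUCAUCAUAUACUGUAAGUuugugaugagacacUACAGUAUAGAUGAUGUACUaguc
miR-451a, of 22 bases, takes positions 17 to 38 of its hairpin. miR-144-5p (23 bases, positions 6 to 28) and miR-144-3p (20 bases, positions 43 to 62) sit on either side of their loop. miR-486-5p, of 22 bases, was counted at chr8:23142587-23142608 on the plus strand. Its hairpin (128 bases, chr8:23142555-23142682) lies in an intron of Ank1 and opposite Mir3107, within an intron of the antisense gene Gm15816.

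The counts at miR-486-5p are shared with the opposite strand. miR-3107-3p, which covers the same bases in reverse, had the same count as miR-486-5p in 24 of 24 libraries, and miR-3107-5p had the same count as the other arm, miR-486-3p, in 24 of 24. Reads from either strand were thus not told apart at this hairpin. At the cluster, miR-451b overlaps the miR-451a hairpin on the other strand without covering miR-451a itself, and it had 119 reads in all libraries together.

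miR-451a was the most abundant member, and miR-144-5p the least. Levels are in CPM, read counts scaled to the library total and to TMM factors, which correct for differences in library composition. Over all 24 libraries miR-451a averaged 2132 ± 1303 CPM (SD, n = 24) and took 0.236% of all reads. By mean CPM it stood at rank 64 among the 654 loci tested. miR-486-5p averaged 416 ± 242 CPM (rank 134), miR-144-3p 341 ± 215 CPM (rank 150) and miR-144-5p 158 ± 89.7 CPM (rank 195). The level of miR-486-5p is that of its own locus, without the reads counted at miR-486-3p. The ranges of neighbours in this order overlap, and miR-486-5p and miR-144-3p differ by less than either SD. Counts were ample for each member: the fewest reads in any library were 123, for miR-144-5p. Library totals ran between 1.60 and 23.6 M reads, so that 3 reads stand for 0.118 CPM in the deepest library and 1.8 CPM in the shallowest.

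The libraries of a group differed widely in miR-451a, the Argonaute 2-cut miRNA that marks red cells most directly. In trained kinase dead mice it lay between 1383 and 3349 CPM, with a median of 1840. Sedentary kinase dead mice had 935 to 3009 CPM (median 1414). Only replicate 2 of that group lay above 1646 CPM. Trained wild type mice had 904 to 3204 CPM (median 1525), and sedentary wild type mice 1733 to 7010 CPM (median 1933). The value of 7010 CPM belongs to 1 library, sedentary wild type replicate 1, and the next in that group was 3953 CPM. The means were 2160 ± 743 CPM in trained kinase dead, 1622 ± 720 in sedentary kinase dead, 1695 ± 830 in trained wild type and 3050 ± 2120 in sedentary wild type (SD, n = 6 each). All pairs of groups overlapped.

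**Figure D1:**
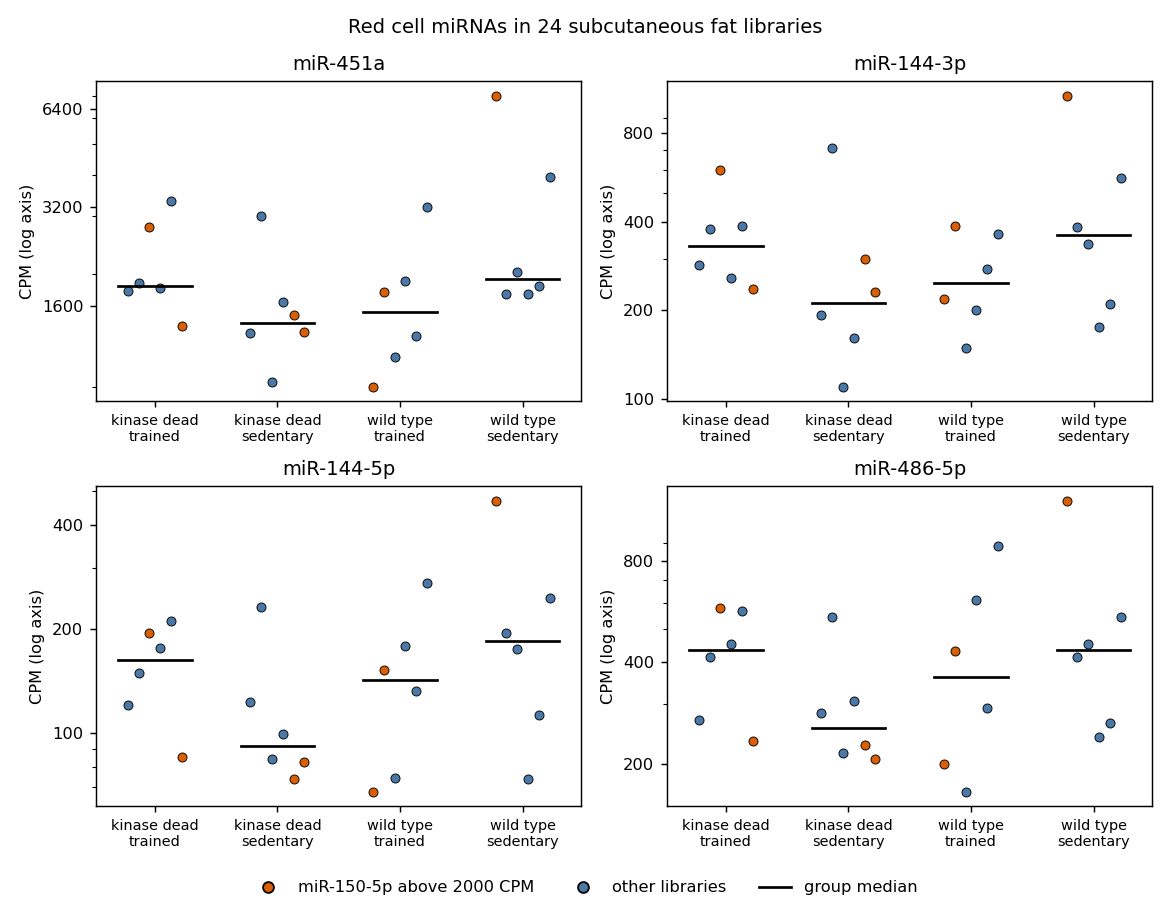
CPM of miR-451a, miR-144-3p, miR-144-5p and miR-486-5p on log axes, 1 point per library (n = 6 per group), with the group median as a bar and the 7 libraries with miR-150-5p above 2000 CPM in orange. Sedentary wild type replicate 1 is the highest point in each panel, at 7010 CPM for miR-451a, and the 4 groups overlap in every panel.

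miR-144-3p, the arm of miR-144 with more reads, ran between 237 and 600 CPM in trained kinase dead mice (median 332) and between 110 and 715 CPM in sedentary kinase dead mice (median 211). All 6 trained kinase dead libraries lay above the sedentary kinase dead median, while the ranges overlapped. Trained wild type mice had 149 to 387 CPM (median 248), and sedentary wild type mice 176 to 1076 CPM (median 360). miR-144-5p, the other arm, had 85.4 to 211 CPM in trained kinase dead mice (median 163) and 73.9 to 232 CPM in sedentary kinase dead mice (median 91.8). It had 67.7 to 271 CPM in trained wild type (median 143) and 73.8 to 471 CPM in sedentary wild type mice (median 185). Sedentary wild type replicate 1 was again the highest of all libraries for both arms.

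miR-486-5p had 234 to 578 CPM in trained kinase dead mice (median 433) and 207 to 543 CPM in sedentary kinase dead mice (median 255). In trained wild type mice it lay between 165 and 884 CPM (median 362), and in sedentary wild type mice between 240 and 1205 CPM (median 433). For all 4 miRNAs the lowest group median was that of sedentary kinase dead mice. In the trained wild type group, replicate 6 held the highest value of miR-486-5p, miR-451a and miR-144-5p, and replicate 2 that of miR-144-3p.

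The spread within groups was wider for the 4 miRNAs than for most loci. The SD of log2 CPM within groups was 0.64 for miR-451a, 0.71 for miR-144-5p, 0.73 for miR-486-5p and 0.76 for miR-144-3p. The median over the 384 loci of at least 10 CPM was 0.35. By this measure they ranked 56, 51, 46 and 42 from the most variable. miR-150-5p of lymphocytes (1.47) and miR-1a-3p of striated muscle (1.20 at its Mir1a-1 locus) varied more, and miR-223-3p of neutrophils (0.21) varied less.

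In sedentary mice, all 4 miRNAs had point estimates below 0 for kinase dead against wild type, with a median log2 fold change of -0.84, beside 0.01 over all 654 loci tested. Fold changes are from edgeR's quasi-likelihood test, with p-values adjusted over all loci by the Benjamini-Hochberg method and a threshold of 0.05. For miR-451a, 5 of 6 sedentary kinase dead libraries lay below the lowest sedentary wild type library. Its log2 fold change was -0.91 (SE 0.37, 95% interval -1.67 to -0.15), or 0.532 times the wild type level, with an edgeR unadjusted p of 0.0207 and an adjusted p of 0.996. miR-144-5p stood at -0.87 (SE 0.39, edgeR unadjusted p = 0.0364, adjusted p = 0.996), miR-486-5p at -0.81 (SE 0.41) and miR-144-3p at -0.68 (SE 0.43). The intervals of miR-486-5p (-1.65 to 0.03) and miR-144-3p (-1.56 to 0.20) include 0.

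At the adjusted threshold none of the 4 passed, nor did any other locus in this comparison (0% of 654 by edgeR, and 0 by DESeq2). An unadjusted p under 0.05 was reached by 5 loci, or 0.765% of those tested, and 4 of them, or 0.612%, had a fold change below 0. Those 4 were miR-451a, miR-144-5p, miR-486-3p and miR-3107-5p, the last pair being 1 set of reads counted for both strands. They were looked up after their values were seen, and since they vary together they are not separate pieces of evidence. Without sedentary wild type replicate 1, the log2 fold change was -0.43 for miR-451a, -0.43 for miR-144-5p, -0.33 for miR-486-5p and -0.19 for miR-144-3p. Without sedentary kinase dead replicate 2 it was -1.16, -1.17, -1.05 and -1.19 for the same miRNAs.

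Training in wild type mice was compared with the same sedentary wild type libraries. The 4 point estimates were again below 0, with a median of -0.66 beside -0.01 over all loci. For miR-451a, 5 of 6 trained libraries lay below the sedentary median and 3 below the lowest sedentary library. Its log2 fold change was -0.85 (SE 0.37, 95% interval -1.61 to -0.09), or 0.556 times the sedentary level, with an edgeR unadjusted p of 0.0299 and an adjusted p of 0.831. It was 1 of 23 loci below 0 at an unadjusted p under 0.05 (3.52% of those tested, and 5.81% in both directions), and no locus passed the adjusted threshold (0%, and 0 by DESeq2). miR-144-3p stood at -0.78 (SE 0.43), miR-144-5p at -0.54 (SE 0.39) and miR-486-5p at -0.27 (SE 0.41), with intervals that include 0. Without sedentary wild type replicate 1, miR-451a stood at -0.41, miR-144-3p at -0.33 and miR-144-5p at -0.14, and miR-486-5p turned to 0.16.

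**Figure D2:**
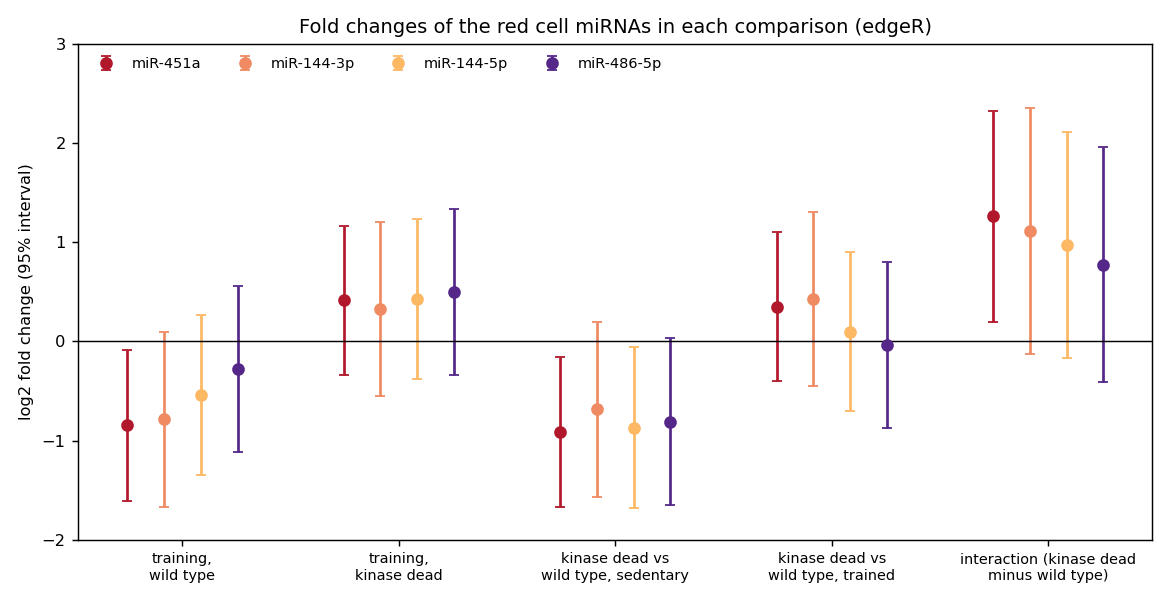
Log2 fold changes from edgeR with 95% intervals for the 4 miRNAs in 4 comparisons of groups and for the difference of the training effects, where values above 0 mean higher in trained or in kinase dead mice. miR-451a and miR-144-5p have intervals below 0 for genotype in sedentary mice, and miR-451a also for training in wild type and, above 0, for the difference of the training effects; none passes the adjusted threshold.

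In kinase dead mice the point estimates for training were above 0, and all 4 intervals include 0. The log2 fold change was 0.50 for miR-486-5p (SE 0.41), 0.43 for miR-144-5p (SE 0.39), 0.41 for miR-451a (SE 0.36) and 0.33 for miR-144-3p (SE 0.42), with an adjusted p of 0.997 by edgeR for each. Their median was 0.42, beside -0.02 over all loci. None of the 4 had an unadjusted p under 0.05, where 2.6% of all loci did, and no locus passed the adjusted threshold (0%, and 0 by DESeq2). Leaving out sedentary kinase dead replicate 2 moved the values to 0.72, 0.71, 0.64 and 0.81 in the same order.

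The difference of the training effects, kinase dead minus wild type, puts both results in 1 test. It was 1.26 for miR-451a (SE 0.52, 95% interval 0.19 to 2.33), with an edgeR unadjusted p of 0.0227 and an adjusted p of 1.00. The other 3 were 1.11 for miR-144-3p (SE 0.60), 0.97 for miR-144-5p (SE 0.55) and 0.77 for miR-486-5p (SE 0.57), and their intervals include 0. An unadjusted p under 0.05 was reached by 13 loci, or 1.99% of those tested, miR-451a being 1 of the 7 above 0 (1.07%), and none passed the adjusted threshold (0%, and 0 by DESeq2). Without sedentary wild type replicate 1 the difference was 0.78 for miR-451a, 0.61 for miR-144-3p, 0.52 for miR-144-5p and 0.29 for miR-486-5p. This test, the one for training in wild type and the one for genotype in sedentary mice share the sedentary wild type libraries, so their values do not support each other.

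Between the genotypes after training, all 4 intervals include 0. The log2 fold change of kinase dead against wild type was 0.43 for miR-144-3p (SE 0.42), 0.35 for miR-451a (SE 0.36), 0.10 for miR-144-5p (SE 0.39) and -0.04 for miR-486-5p (SE 0.40). Intervals such as -0.40 to 1.10 for miR-451a leave room for changes in either direction. Averaged over the genotypes, training gave -0.22 for miR-451a (SE 0.26), -0.23 for miR-144-3p (SE 0.30), -0.05 for miR-144-5p (SE 0.28) and 0.11 for miR-486-5p (SE 0.29). No member had an unadjusted p under 0.05 in either comparison, where 0.917% and 5.66% of all loci did, and none of the loci passed the adjusted threshold (0% in both, and 0 by DESeq2).

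The 4 miRNAs went up and down together from library to library. Over 24 libraries, log2 CPM of miR-144-5p and miR-486-5p, which lie on different chromosomes, correlated with Pearson's r = 0.96 (Spearman's rho = 0.94). miR-451a correlated with miR-486-5p at r = 0.89 (rho = 0.88), with miR-144-5p at r = 0.89 (rho = 0.85) and with miR-144-3p at r = 0.84 (rho = 0.74). miR-144-3p was the loosest of the set, with r = 0.81 (rho = 0.76) against its own other arm and r = 0.77 (rho = 0.68) against miR-486-5p. In permutation tests of rho with 100000 resamples, adjusted over the 6 pairs, the adjusted p lay between 2e-05 and 0.00039, and 1e-05 is the smallest unadjusted p that these resamples can give.

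The covariation was there within groups too. After subtracting each group's mean, r lay between 0.75 and 0.96, and in the separate groups (n = 6 each) between 0.62 and 0.99 over all pairs. Leaving out the 2 libraries farthest from the median of the first miRNA of a pair left r between 0.67 and 0.94. Of the 24 libraries, 7, spread over all 4 groups, stand apart by miR-150-5p of lymphocytes above 2000 CPM. They are trained kinase dead replicates 3 and 6, sedentary kinase dead replicates 5 and 6, trained wild type replicates 1 and 2 and sedentary wild type replicate 1. Within these 7, r lay between 0.96 and 0.99, and within the other 17 between 0.70 and 0.94.

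**Figure D3:**
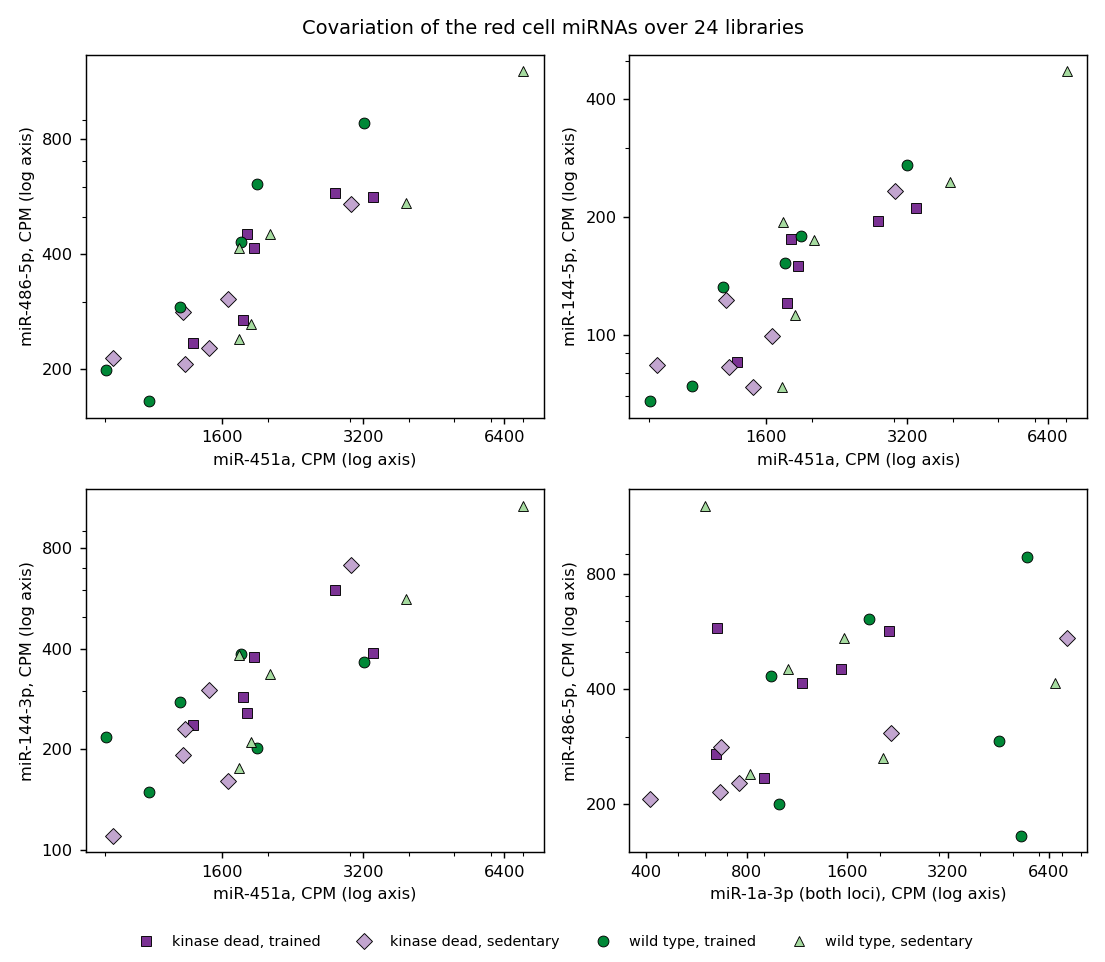
Each point is 1 of 24 libraries on log axes of CPM, with kinase dead in purple and wild type in green, for miR-451a against miR-486-5p, miR-144-5p and miR-144-3p, and for miR-1a-3p against miR-486-5p. The first 3 panels rise along a line in all 4 groups (r = 0.89, 0.89 and 0.84), while the last is scattered (r = 0.19).

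miR-486-5p went with the red cell cluster, while its correlation with miR-1a-3p was weak and did not pass the permutation test. miR-1a-3p, a miRNA of skeletal and heart muscle, correlated with miR-486-5p at r = 0.19 (rho = 0.23; permutation test of r, p = 0.379, adjusted p = 0.631 over 5 relations). Against the cluster, miR-1a-3p gave r = 0.10 with miR-451a, 0.08 with miR-144-3p and 0.25 with miR-144-5p. Within the 17 libraries with miR-150-5p not above 2000 CPM, its r was 0.31 with miR-486-5p and 0.26 with miR-451a. It was 0.40 with miR-144-3p and 0.39 with miR-144-5p there, and the adjusted p of these permutation tests lay between 0.214 and 0.318. Within the 7 other libraries, r was -0.17, -0.34, -0.22 and -0.24 in the same order. Of the 8 loci of the striated muscle list, 7 had enough reads to test, and their rho with miR-486-5p, given with no test, ran between 0.16 and 0.23. The remaining 1, miR-208b-3p of heart and slow muscle, had 9 reads in all. The summed level of the muscle list lay between 715 and 2405 CPM in trained kinase dead, 474 and 8352 in sedentary kinase dead, 1090 and 6078 in trained wild type and 685 and 7483 CPM in sedentary wild type mice. Between genotypes after training, all 7 tested muscle loci had point estimates below 0, with a median log2 fold change of -1.42, and miR-486-5p stood at -0.04. An edgeR unadjusted p under 0.05 was reached by 4 of the 7, where 0.917% of all loci reached it. None of the 7 passed the adjusted threshold, and some of these loci belong to the same miRNA, so they are not separate observations. With muscle miRNAs as a covariate, the log2 fold change of miR-486-5p was -0.85 for genotype in sedentary mice and -0.38 for training in wild type, beside -0.81 and -0.27 without it.

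The counts at the loci of the 2 miR-486 arms were nearly in step. The locus of miR-486-3p, at chr8:23142629-23142649, had 106083 reads against 92611 at that of miR-486-5p. Each count is equal to that of a miR-3107 arm on the other strand. Which arm of miR-486 gave more reads can therefore not be told. Whether reads of 1 miRNA were divided between these loci was not tested, so their ratio cannot be read as a balance of 2 arms. The ratio of 5p over 3p stayed between 0.763 and 0.973 in all 24 libraries, with an SD of 0.08 on the log2 scale. Among 379 other loci of at least 10 CPM, miR-486-3p and its opposite-strand double miR-3107-5p were the most like each of the members (rho of 0.99 with miR-486-5p, 0.94 with miR-144-5p, 0.90 with miR-451a and 0.71 with miR-144-3p). These 2 loci hold 1 set of reads, from the same hairpin as the member miR-486-5p, so their likeness is no separate evidence.

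After these, the next loci were far less alike. For miR-451a they were miR-676-3p (rho = 0.51) and let-7c-5p at its loci 2 and 1 (0.47 and 0.43). For miR-486-5p they were miR-30c-5p at its loci 1 and 2 (0.51 and 0.47) and miR-676-3p (0.45). For miR-144-3p they were miR-363-3p (0.48), miR-33-5p (0.45) and miR-25-3p (0.43). These were picked for their rho, so no test is given, and all values come from the same 24 libraries.

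**Figure D4:**
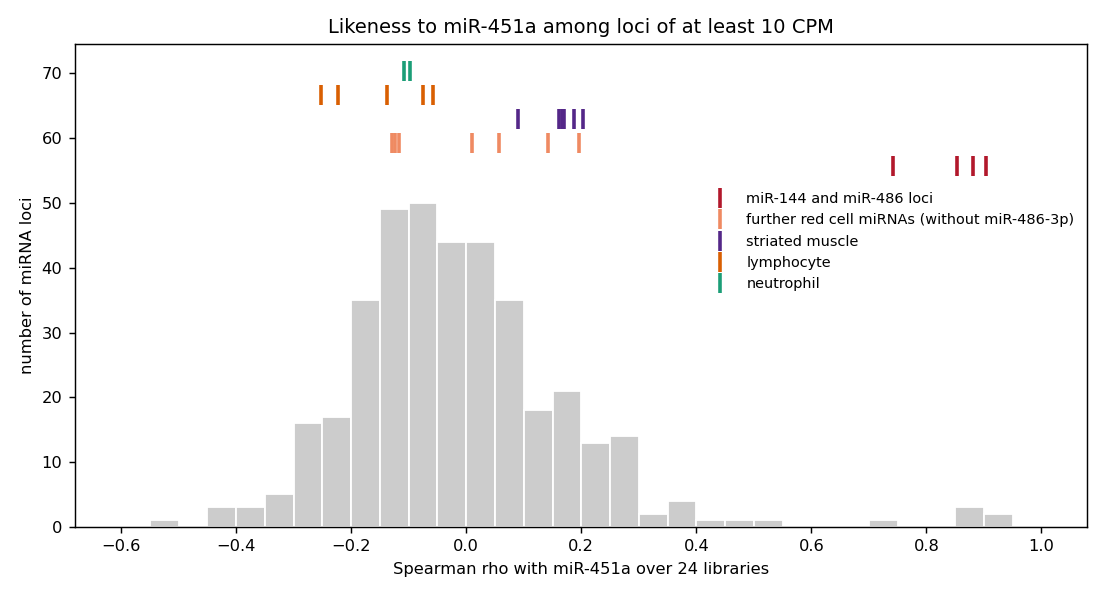
Histogram of Spearman's rho with miR-451a over 24 libraries for loci of at least 10 CPM, with ticks for named lists of miRNAs above it. The loci of miR-144 and miR-486, with the opposite-strand loci that share their counts, stand at 0.74 to 0.90, the highest of the other loci is at 0.51, and the further red cell miRNAs other than miR-486-3p lie between -0.13 and 0.20.

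Other miRNAs that red cells carry, but that many cells make, were less like the members than miR-486-3p was. The locus of miR-486-3p lies in the hairpin of the member miR-486-5p, so it is not separate from the members. The list holds 8 loci, all tested: miR-486-3p, miR-16-5p at its 2 loci, miR-15b-5p, miR-25-3p, miR-92a-3p at its 2 loci and miR-363-3p. Apart from miR-486-3p, with rho of 0.71 to 0.99, rho ran between -0.13 and 0.20 with miR-451a, -0.19 and 0.17 with miR-144-5p, and -0.20 and 0.24 with miR-486-5p. With miR-144-3p all 7 had rho above 0, between 0.21 for miR-15b-5p and 0.48 for miR-363-3p. Some were about as abundant as miR-451a: miR-25-3p averaged 2024 CPM and miR-92a-3p 3367 CPM at its locus 1. Of the 8, 5 were above 0 and 3 below for genotype in sedentary mice (median 0.06), and 3 were above and 5 below for training in wild type (median -0.16). An unadjusted p under 0.05 was reached by 1 of the 8 for genotype in sedentary mice, miR-486-3p, where 0.765% of all loci reached it, and by 0 of the 8 for training in wild type, where 5.81% of all loci did. None passed the adjusted threshold in either comparison.

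Markers of other blood cells had rho below 0 with miR-451a, and those of lymphocytes had rho above 0 with miR-144-3p. The 5 lymphocyte loci, among them miR-150-5p, lay between -0.25 and -0.06 with miR-451a, -0.18 and -0.12 with miR-144-5p, and -0.23 and -0.08 with miR-486-5p, but between 0.07 and 0.29 with miR-144-3p. The 2 arms of the neutrophil miRNA miR-223 gave -0.10 and -0.11 with miR-451a and -0.03 and -0.17 with miR-144-3p. For markers of the solid tissue, rho with miR-451a was -0.16 and -0.15 for the arms of endothelial miR-126a, -0.13 to 0.17 for 5 epithelial loci such as miR-200a-3p, -0.07 to 0.28 for 5 loci abundant in adipocytes such as miR-148a-3p, and 0.18 for miR-122-5p of liver. No locus of these lists passed the adjusted threshold in any of the 6 comparisons. In the 7 libraries with miR-150-5p above 2000 CPM, miR-451a lay between 904 and 7010 CPM, against 935 to 3953 CPM in the other 17, so the split by lymphocyte miRNAs did not separate libraries by miR-451a. Without those 7 libraries, the log2 fold change of miR-451a was -0.36 for genotype in sedentary mice (SE 0.36), -0.26 for training in wild type (SE 0.36) and 0.59 for the difference of the training effects (SE 0.52). For miR-144-3p the values without them were -0.15, -0.42 and 0.54, for miR-144-5p -0.23, 0.03 and 0.23, and for miR-486-5p -0.16, 0.35 and -0.03. With miR-150-5p as a covariate and all libraries kept, those of miR-451a were -0.90, -0.83 and 1.24. Sedentary wild type replicate 1 is 1 of the 7.

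Ratios within a library do not depend on how libraries are scaled. miR-486-5p had 0.138 to 0.321 reads for each read of miR-451a (median 0.197, n = 24). The mean ratio was 0.195 ± 0.0376 in trained kinase dead, 0.186 ± 0.0311 in sedentary kinase dead, 0.240 ± 0.0581 in trained wild type and 0.176 ± 0.0450 in sedentary wild type mice (SD, n = 6 each). The widest gap was between trained and sedentary wild type mice, 0.45 on the log2 scale, with p = 0.0628 in a two-sided exact permutation test over all splits and an adjusted p of 0.753 over 12 tests. Trained kinase dead against trained wild type gave -0.28 (exact permutation p = 0.182, adjusted p = 0.935). None of the 12 tests passed. With the counts at the 2 miR-486 arms summed, the gap between trained and sedentary wild type mice was 0.40 (exact permutation p = 0.0996, adjusted p = 0.935).

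**Figure D5:**
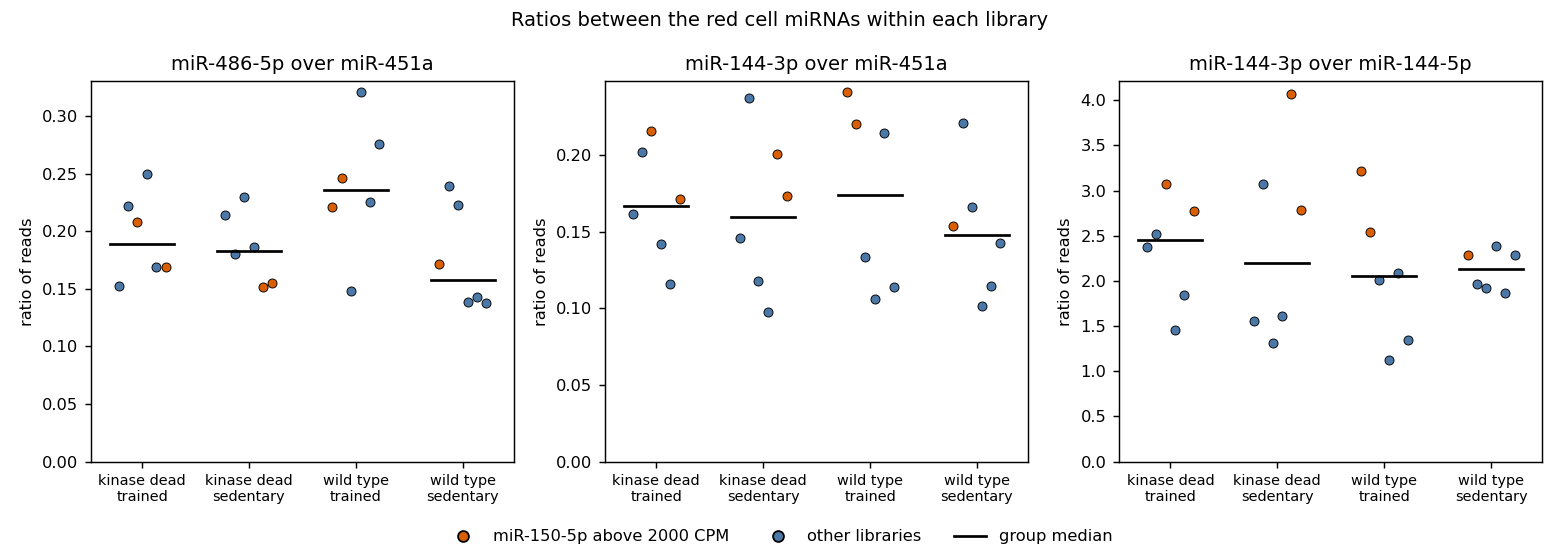
Ratios of reads within each library for miR-486-5p over miR-451a, miR-144-3p over miR-451a and miR-144-3p over miR-144-5p, 1 point per library (n = 6 per group), with group medians as bars and the 7 libraries with miR-150-5p above 2000 CPM in orange. The groups overlap in all 3 panels, and the orange points lie between 2.29 and 4.07 in the third panel.

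The balance of the 2 arms of miR-144, which are cut from 1 hairpin, varied between libraries. The ratio of counts at the miR-486 arms varied less (SD of 0.08 on the log2 scale). Since those counts do not tell the strands apart, that ratio is not a like measure of arm balance. miR-144-3p had 1.13 to 4.07 reads for each read of miR-144-5p (median 2.19), an SD of 0.46 on the log2 scale. The range was 1.46 to 3.07 in trained kinase dead, 1.31 to 4.07 in sedentary kinase dead, 1.13 to 3.22 in trained wild type and 1.87 to 2.38 in sedentary wild type mice. The last group was the narrowest, with an SD of 0.15, and its level was inside the range of the others. The largest difference between groups in the mean log2 ratio was 0.23, for trained kinase dead against trained wild type (two-sided exact permutation p = 0.420, adjusted p = 0.935).

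The arm ratio of miR-144 went with the lymphocyte split instead. It lay between 2.29 and 4.07 in the 7 libraries with miR-150-5p above 2000 CPM, against 1.13 to 3.08 in the other 17, and 7 of 7 lay above the median of the others (1.93) while 2 of 7 lay above every other library. miR-144-3p over miR-451a was 0.154 to 0.241 in the 7 and 0.0975 to 0.237 in the 17, and again 7 of 7 lay above the median of the others (0.142), with 1 of 7 above every other library. miR-144-5p over miR-451a was 0.0493 to 0.0868 in the 7 and 0.0426 to 0.112 in the 17, with 1 of 7 above the median of the others. The ratio of counts at the miR-486 arms, with the strands not told apart, was 0.763 to 0.928 in the 7 and 0.797 to 0.973 in the 17. Of the 7, 3 lay above the median of the others. All of these ratios overlapped between the sets. The 7 were picked by miR-150-5p after earlier results of these data were known, so these values are given with no test. The mean annotated length of the loci, weighted by their reads, was 21.8 to 21.9 bases in either set. It comes from the coordinates of the loci and does not measure the length of the reads.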

How the data were processed

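TRIzol was used to extract the RNA and a NEBNext small RNA kit to make libraries, per the labels' protocols. The submitters' processing notes name featureCounts, Bowtie2, Trim Galore and CASAVA 1.8.2, with settings for strand and multiple mapping not given in the sources used here, and build mm10. What the authors deposited is a table of raw counts, 1 row per mature miRNA locus with its coordinates, without normalization. Loci were named by coordinates from RefSeq (1670) or GENCODE hairpins (375).

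The 24 libraries were grouped by their genotype and training labels, and replicates were numbered by accession, which pairs nothing. All 4 groups entered 1 fit with edgeR 4.0.16 (R 4.3.3): TMM factors, filterByExpr (654 of 2045 loci kept, the rest holding 0.0166% of reads), quasi-likelihood tests and Benjamini-Hochberg adjustment over the 654 loci, threshold 0.05. The script was tested on simulated data. For correlations and the spread within groups, 0.5 was added to CPM before taking log2. The covariates were log2 CPM with a prior of 2 reads, and the tests of ratios had a prior of 0.5 reads. The floor of 3 reads covers counting error only. Alternatives were DESeq2 1.42.0, other scalings, no filter, fits of only the groups compared, covariates, leaving out libraries and, added after the data were seen, summing the arms of miR-486.

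Named are the 4 miRNAs, their opposite-strand loci, the marker lists and, for miR-451a, miR-144-3p and miR-486-5p, the 5 loci most like each by rho. The members and lists were chosen with earlier results of these data known.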

Additional observations from a re-analysis of the deposited data

Results flagged for a closer look

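Among 28 sets of 6 libraries, 16 of levels and 12 of ratios, 5 held a library far from the other 5 by Dixon's test, which by chance flags about 1 in 20 sets. Of these, 4 come from 1 library, sedentary kinase dead replicate 2. It had 3009 CPM of miR-451a, 715 CPM of miR-144-3p, 232 CPM of miR-144-5p and 543 CPM of miR-486-5p, against at most 1646, 300, 123 and 306 CPM in the other libraries of its group. The 4 miRNAs vary together, so these are not separate observations. The other is sedentary wild type replicate 1, with 1205 CPM of miR-486-5p, against at most 544 CPM in the rest of its group. No ratio between the miRNAs was far from its group in either library.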

How the results depend on the processing

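No paired analysis was possible because replicates were numbered by accession and pair no libraries. With miR-150-5p as a covariate, edgeR called 1 locus for training in wild type (miR-203-5p) and 2 for training in both genotypes (miR-203-5p and miR-1981-3p). The remaining 50 of 52 alternative counts, and all that leave out 1 library, were 0 calls. Of 208 alternative fold changes of the 4 miRNAs 200 kept their direction, as did 24 of 28 alternative ratio differences and 50 of 55 correlations, and none of the fold changes or ratios passed the threshold. The causes of the changes of direction were not tested.

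For miR-486-5p between genotypes after training, the log2 fold change was 0.0246 with library totals only and 0.0884 with muscle miRNAs as a covariate. For miR-144-5p and training in both genotypes it was 0.0019 without a filter. Without the 7 libraries with miR-150-5p above 2000 CPM, training in wild type gave 0.0333 for miR-144-5p and 0.35 for miR-486-5p. Training in both genotypes then gave 0.15 for miR-144-5p and 0.0369 for miR-451a, and the difference of the training effects -0.0264 for miR-486-5p. Of the log2 ratios, miR-486-5p over miR-451a then gave -0.0525 for training in kinase dead. miR-144-3p over miR-451a gave -0.0743 for training in wild type and -0.0214 for genotype in sedentary mice, where miR-144-3p over miR-144-5p gave -0.22. The rho of miR-1a-3p with miR-144-3p was -0.12 without the 2 farthest libraries. Within the 7 libraries alone, rho of miR-1a-3p was -0.32 with miR-486-5p, -0.36 with miR-451a, -0.36 with miR-144-3p and -0.43 with miR-144-5p.

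Leaving out 1 library at a time changed further signs. For training in wild type, miR-486-5p ran between -0.56 and 0.16. For genotype after training, miR-144-5p ran between -0.12 and 0.34 and miR-486-5p between -0.28 and 0.27. Over both genotypes, training ran between -0.17 and 0.12 for miR-144-5p, -0.34 and 0.007 for miR-144-3p, and -0.0343 and 0.30 for miR-486-5p. The log2 ratio of miR-144-3p over miR-451a ran between -0.0277 and 0.23 for genotype in sedentary mice, -0.10 and 0.13 for genotype after training, and -0.0469 and 0.21 for training in kinase dead. That of miR-144-3p over miR-144-5p ran between -0.28 and 0.0275 for training in wild type, -0.11 and 0.21 for genotype in sedentary mice, and -0.11 and 0.22 for training in kinase dead. miR-486-5p over miR-451a ran between -0.0138 and 0.13 for training in kinase dead.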
